A study of Mus musculus with 6 samples.

Results

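Intestinal enzymes of conjugation, and of the ester hydrolysis that can precede it, were followed here in 3 gene families. These were the UDP-glucuronosyltransferases (Ugt), the cytosolic sulfotransferases (Sult) and the carboxylesterases (Ces). They were taken by name, as every row of the count table whose symbol begins with Ugt, Sult or Ces followed by a number, which gave 62 of 24594 rows. Of these, 21 are Ugt genes, 21 Sult genes and 20 Ces genes. The rule uses names and no measured values. RNA was sequenced from mouse small-intestinal organoids, epithelial cultures that build crypt-like buds and villus-like regions. Single cells were grown for 96 h and then held for 24 h with NIBR-LTSi at 5 uM or with the matching volume of DMSO alone. The compound blocks LATS1 and LATS2, Hippo pathway kinases that restrain the co-activators YAP and TAZ. No genotype, strain, age or sex of the source animals is given in the sources used here. Each group had 3 libraries, and the single comparison was NIBR-LTSi against DMSO.

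Glucuronosyltransferases sit in the membrane of the endoplasmic reticulum and transfer glucuronic acid from UDP-glucuronic acid to bilirubin, steroids, phenols and drugs. Sulfotransferases work in the cytosol and transfer a sulfate group from its activated form, PAPS, to phenols, catecholamines, sterols and hormones. Carboxylesterases add nothing: they hydrolyse ester and amide bonds in drugs, prodrugs and acylglycerols in the lumen of the endoplasmic reticulum, and often free the group that is conjugated afterwards. In enterocytes, the absorptive cells of the villus, the 3 families together limit how much of a swallowed compound reaches the blood intact. Many of their genes lie in tandem arrays of close relatives, and one array, Ugt1a, is built as several first exons that splice to a single set of shared exons.

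Total counts were 18395427 to 25238809 in DMSO and 19323994 to 26767043 with NIBR-LTSi. Levels are CPM after library scaling with TMM factors. Each log2 fold change compares NIBR-LTSi with DMSO, positive where NIBR-LTSi is higher, and has a standard error (SE). A gene is called when its adjusted p from the edgeR quasi-likelihood test, Benjamini-Hochberg adjusted over 12592 tested genes, is under 0.05. Replicates differed little, with a coefficient of variation of 6.02% from the common dispersion, and small differences could be called. The background is accordingly high: 42.0% of all tested genes were called, 22.8% higher and 19.2% lower. Whether the replicates came from separate cultures is not stated, so every p-value here reflects the spread among 6 libraries that may differ only technically. The organoid label was checked against marker genes. Enterocyte markers summed to 47790 to 49210 CPM in DMSO and to 41780 to 45960 CPM with NIBR-LTSi, and 4 of 14 were higher, 7 lower and 3 not called. None of the 6 fibroblast markers exceeded 4 counts over all libraries, and Dcn and Lum were at 0. The 5 immune markers summed to 1.24 to 2.63 CPM per library and the 3 endothelial markers to 0.219 to 0.614 CPM, with Cd3e, Cdh5 and Kdr at 0. Hepatocyte markers summed to at most 3.25 CPM in any library.

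Of the 62 rows, 36 could be tested, and with NIBR-LTSi 12 were higher, 16 lower and 8 not called. That is 77.8% called, against 42.0% of all tested genes. Many of these rows are abundant and have a small SE, whereas the 42.0% covers genes of every tested level. Shares at matched levels were not computed, so the excess cannot be read as a trait of these families. The rows were also chosen with earlier results of these data known. The 8 Ugt1a rows hold mostly the same reads, as shown next. With that locus counted as 1 row, 29 were tested, of which 12 were higher, 9 lower and 8 not called (72.4% called, median log2 fold change 0.09, against 0.02 over all tested genes). Called changes of at least 2-fold were found in 5 rows, against 4.19% of all tested genes. These were Sult1c2, Ugt2b1, Ces2f and Ces1g among those that rose, and Ces1c among those that fell. In each of the 28 called rows the 3 libraries of one group lay wholly above the 3 of the other, and in each of the 8 that were not called the groups overlapped. How often called genes separate in this way over the whole table was not computed, so it cannot be read as a trait of these families. The 8 Ugt1a rows among the 28 are also not separate results. The plot of levels by library shows the spread among libraries.

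**Figure D1:**
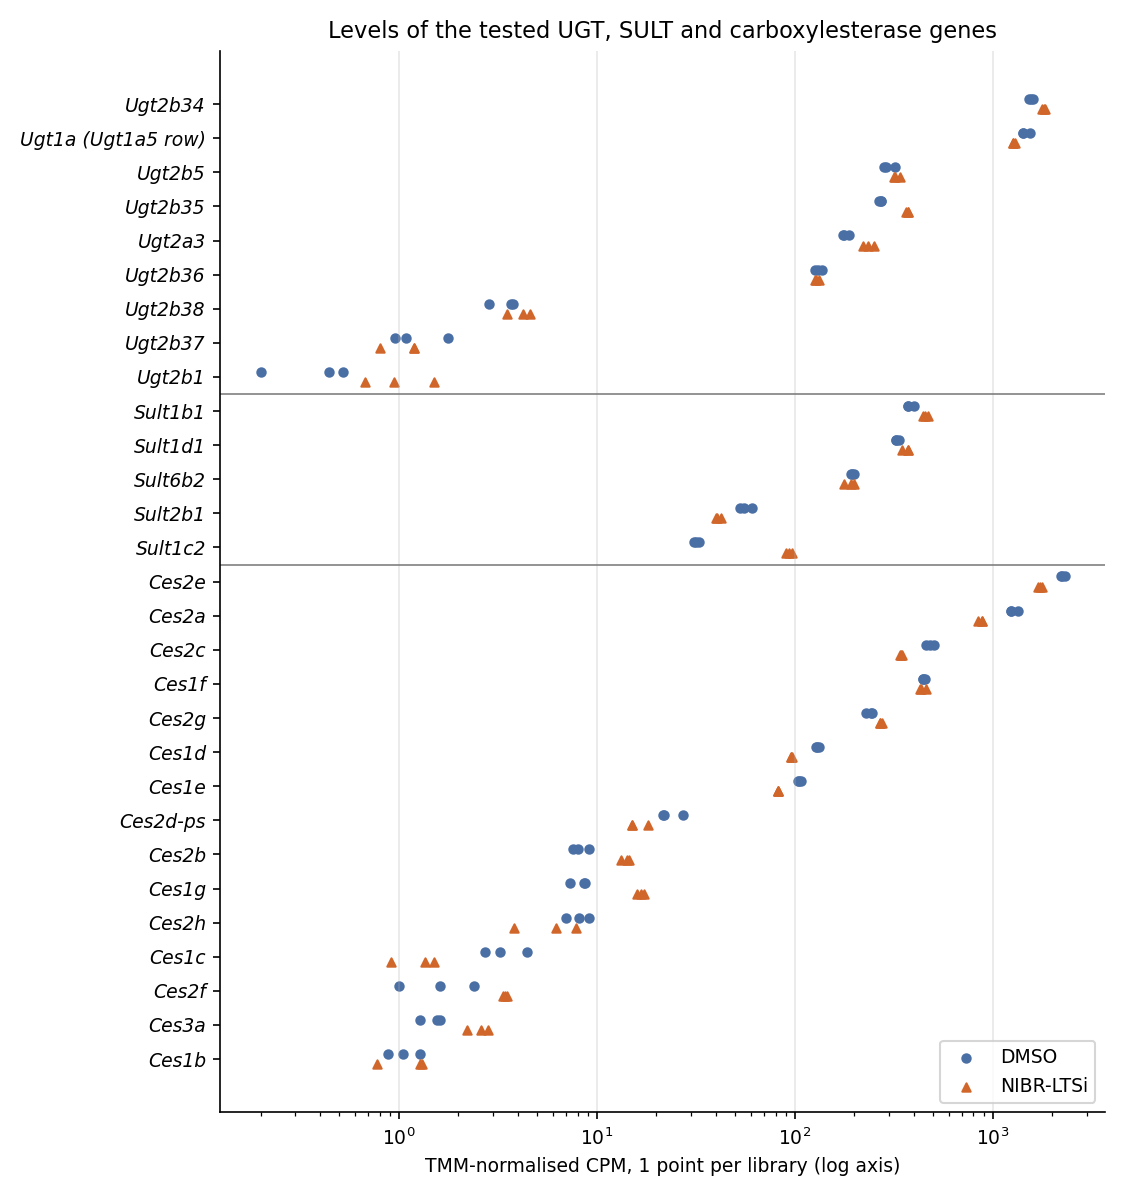
TMM-normalised CPM (log axis) of each tested gene, with 1 point per library (circles, DMSO; triangles, NIBR-LTSi) and lines between the Ugt, Sult and Ces families. The Ugt1a locus is shown as its Ugt1a5 row. Sult1c2 moves from about 32 to 93 CPM, whereas the abundant Ces2e and Ces2a sit lower with NIBR-LTSi.

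The Ugt1a locus occupies chr1:88055411-88220002 (RefSeq, GRCm38.p6). Each of its transcripts starts in its own first exon, which encodes the part of the enzyme that binds the substrate, and continues into the same 4 exons. In the GENCODE M21 annotation these shared exons are chr1:88215044-88215175, chr1:88215795-88215882, chr1:88216138-88216357 and chr1:88218127-88218997, 1311 bases in all, against 879 to 954 bases of first exon. The sequences across the junction are given because they show why most reads of this locus name no single gene. Lower case is the last 40 bases of exon 1 and capitals are the first 30 bases of exon 2, all coding, 5′ to 3′ on the plus strand:
Ugt1a1: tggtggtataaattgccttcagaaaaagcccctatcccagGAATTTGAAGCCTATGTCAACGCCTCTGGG
Ugt1a9: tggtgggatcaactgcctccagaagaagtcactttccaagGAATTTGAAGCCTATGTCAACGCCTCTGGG
Ugt1a7c: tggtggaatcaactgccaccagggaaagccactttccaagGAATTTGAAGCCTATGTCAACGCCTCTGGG
Ugt1a6a: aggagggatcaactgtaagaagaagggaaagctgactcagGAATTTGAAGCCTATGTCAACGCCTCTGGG
Ugt1a2: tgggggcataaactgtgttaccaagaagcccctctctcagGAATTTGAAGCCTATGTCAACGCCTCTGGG
Ugt1a5: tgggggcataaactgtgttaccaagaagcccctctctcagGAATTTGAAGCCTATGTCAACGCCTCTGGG
The capitals are identical in all 8 transcripts, and a read that lies in them belongs to any of the 8. Ugt1a2 and Ugt1a5 are also identical in the 40 bases before the junction. Over whole first exons, Ugt1a6a and Ugt1a6b are 96.5% identical, Ugt1a9 and Ugt1a10 91.6%, and Ugt1a2 and Ugt1a5 80.5%. Ugt1a1 stands apart, with 53.3% to 57.3% identity to each of the others.

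The 8 Ugt1a rows of the table were nearly copies of one another. The Ugt1a5 row was the lowest in all 6 libraries, with 35742, 27834 and 30201 counts in DMSO and 25028, 30953 and 34549 with NIBR-LTSi. Rows for Ugt1a10, Ugt1a2 and Ugt1a6b exceeded it by 12 to 77 counts. A base of this size, repeated 8 times, made up 93.4% to 94.1% of the sum of the rows, which itself was 1.10% to 1.29% of all counts. How reads over shared exons were counted is not given in the sources used here. As deposited, all 8 rows fell by 0.18 to 0.22 on the log2 scale, and these are not 8 separate results.

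The shared signal of the locus was lower with NIBR-LTSi. The Ugt1a5 row stood at 1432, 1546 and 1426 CPM in DMSO and at 1292, 1266 and 1263 CPM with NIBR-LTSi, a fall of 0.20 on the log2 scale (SE 0.0378; edgeR adjusted p = 1.00e-03). All 3 treated libraries lay below all 3 controls. The rows that carry almost nothing beyond it gave the same picture. Ugt1a10 stood at 1433, 1547 and 1427 CPM against 1293, 1268 and 1265 CPM, Ugt1a2 at 1434, 1548 and 1428 CPM against 1293, 1269 and 1266 CPM, and Ugt1a6b at 1435, 1548 and 1428 CPM against 1294, 1268 and 1265 CPM. In bulk RNA, fewer cells of a type and less RNA per cell cannot be told apart, here and for every gene below.

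The counts by which the other rows exceed the Ugt1a5 row are closer to the single enzymes. Each such difference leaves out as many reads as the first exon of Ugt1a5 itself drew. It is a lower bound only where all extra reads come from the first exon of that gene, which need not hold for every row. Ugt1a1, the enzyme that conjugates bilirubin, stood at 1598, 1708 and 1587 CPM as a whole row in DMSO and at 1453, 1426 and 1422 CPM with NIBR-LTSi. Its counts above the Ugt1a5 row were 4147, 2920 and 3392 in DMSO and 3119, 3911 and 4343 with NIBR-LTSi. Scaled to library size these were 168, 164 and 162 CPM against 163, 162 and 160 CPM, and the groups overlapped. With the shared part removed, the fall of the Ugt1a1 row shrank from 0.19 to 0.03 on the log2 scale (log2 fold change -0.03, SE 0.0368; edgeR adjusted p = 0.603).

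Ugt1a9, an enzyme of phenol glucuronidation, stood at 1468, 1581 and 1459 CPM in DMSO and at 1319, 1292 and 1287 CPM with NIBR-LTSi as a whole row. Its 915, 623 and 699 counts above the Ugt1a5 row in DMSO became 528, 635 and 660 with NIBR-LTSi, or 37.0, 34.9 and 33.3 CPM against 27.5, 26.2 and 24.4 CPM. The groups did not overlap, and the log2 fold change was -0.44 (SE 0.066; edgeR adjusted p = 2.43e-04), a larger fall than that of the row as deposited (-0.21). Ugt1a1 and Ugt1a9 are read most cleanly, because their widths in the table equal exon 1 plus the shared exons. Per kb of first exon, Ugt1a1 had 180 ± 3.34 CPM in DMSO and 177 ± 1.26 with NIBR-LTSi, and Ugt1a9 had 39.9 ± 2.09 and 29.6 ± 1.81 (SD, n = 3).

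Ugt1a6a and Ugt1a7c, both of which conjugate phenols, also had many counts above the Ugt1a5 row. As whole rows, Ugt1a6a stood at 1526, 1633 and 1514 CPM against 1348, 1330 and 1331 CPM, and Ugt1a7c at 1917, 2036 and 1910 CPM against 1742, 1720 and 1707 CPM. Above the base, Ugt1a6a went from 90.6 ± 4.47 to 63.6 ± 6.05 CPM (log2 fold change -0.51, SE 0.0674; edgeR adjusted p = 1.27e-04). Ugt1a7c went from 490.9 ± 3.64 to 453.6 ± 5.06 CPM (log2 fold change -0.11, SE 0.0316; edgeR adjusted p = 0.0124). For both, the groups did not overlap. Their extra counts need not come from first exons. The annotated last exon of Ugt1a7c runs 1005 bases past that of Ugt1a5, and the Ugt1a6a row is 3179 bases wider than exon 1 and the shared exons. Ugt1a10, Ugt1a2 and Ugt1a6b were left with means of 1.19 to 2.38 CPM and were not called (edgeR adjusted p = 0.653, 0.623 and 0.390).

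Counts above the base were also set against the Ugt1a5 row of the same library. Ugt1a1 had 11.6, 10.5 and 11.2 counts above the base per 100 base counts in DMSO and 12.5, 12.6 and 12.6 with NIBR-LTSi. Ugt1a9 had 2.56, 2.24 and 2.31 in DMSO and 2.11, 2.05 and 1.91 with NIBR-LTSi. Ugt1a6a had 6.62, 5.62 and 6.13 against 4.37, 5.07 and 5.40, and Ugt1a7c 33.9, 31.7 and 33.9 against 34.8, 35.9 and 35.2. Neither Ugt1a1 nor Ugt1a9 overlapped between groups, and they moved in opposite directions relative to the base. A two-sided exact permutation test gave p = 0.1 for each of these 4, the smallest that 3 against 3 allows (0.175 after Benjamini-Hochberg adjustment over 7 rows). A threshold of 0.05 is out of reach for this test. For Ugt1a10, Ugt1a2 and Ugt1a6b the groups overlapped (exact permutation p = 0.5, 0.3 and 0.9).

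**Figure D2:**
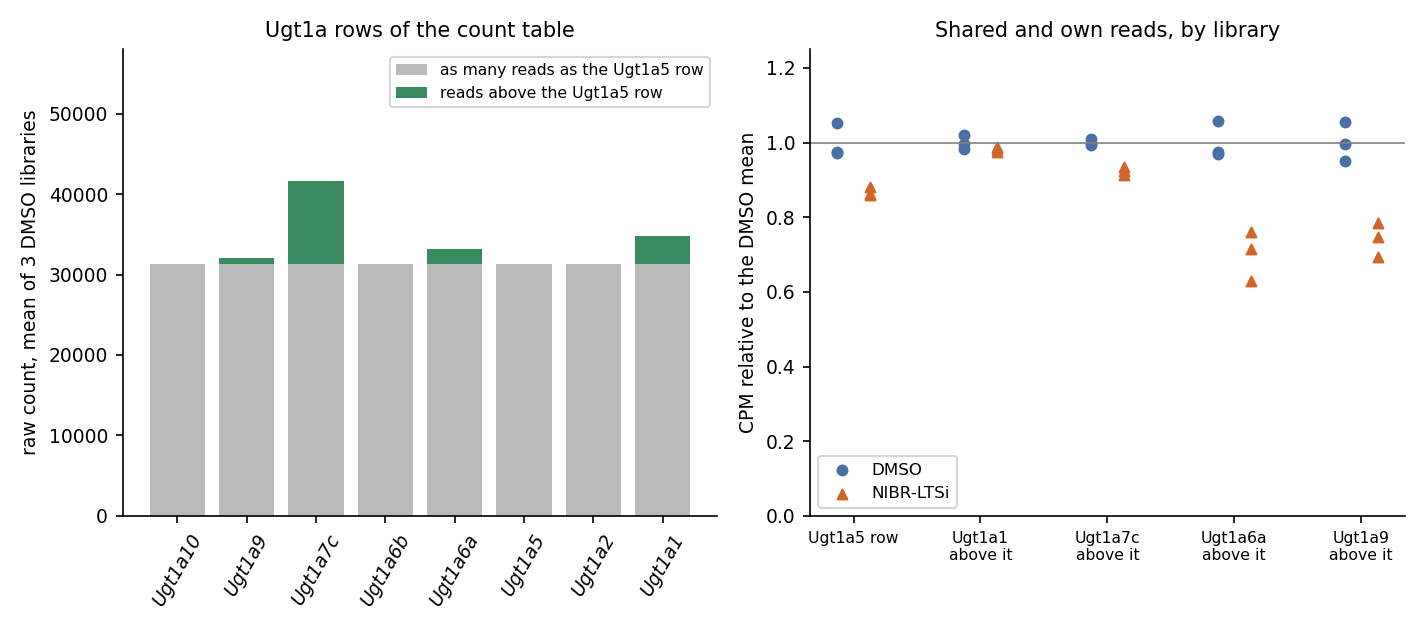
Left, mean raw count of each Ugt1a row over the 3 DMSO libraries, split into as many reads as the Ugt1a5 row holds (grey) and the reads above it (green). Right, CPM relative to the DMSO mean for the Ugt1a5 row and for the reads above it in 4 other rows, 1 point per library: for Ugt1a1 the groups overlap near 1, whereas for Ugt1a6a and Ugt1a9 the NIBR-LTSi libraries lie below 0.8.

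Ugt2a and Ugt2b enzymes conjugate steroids, bile acids and many drugs. Of 8 tested genes 4 were higher, none was lower and 4 were not called, so that the called share is near the 42.0% of all tested genes. Ugt2b34, the most abundant at 1532, 1601 and 1560 CPM in DMSO, reached 1848, 1782 and 1815 CPM with NIBR-LTSi (log2 change 0.21, SE 0.0329; edgeR adjusted p = 2.62e-04). Ugt2b35 rose from 267.8, 271.6 and 273.7 CPM to 372.5, 363.7 and 373.9 CPM (0.45, SE 0.0338; edgeR adjusted p = 8.85e-07). Ugt2a3 rose from 177.8, 188.2 and 174.5 CPM to 251.7, 233.6 and 222.0 CPM (0.39, SE 0.0501; edgeR adjusted p = 6.97e-05). In these 3 genes every treated library exceeded every control, with Ugt2a3 the most scattered of them. The least abundant, Ugt2b1, had 0.200, 0.444 and 0.520 CPM in DMSO and 0.671, 0.941 and 1.499 CPM with NIBR-LTSi (1.46, SE 0.420; edgeR adjusted p = 0.0148). It had few reads, and its call was lost with DESeq2 (adjusted p = 0.0542), without DMSO replicate 1 (log2 fold change 1.11, edgeR adjusted p = 0.0821) and without NIBR-LTSi replicate 3 (1.08, edgeR adjusted p = 0.0931).

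Ugt2b5 and Ugt2b36 were not called. Ugt2b5 stood at 282.6, 320.4 and 288.7 CPM in DMSO and at 342.3, 320.0 and 317.3 CPM with NIBR-LTSi, with 1 control among the treated values (log2 fold change 0.14, SE 0.051; edgeR adjusted p = 0.0514). It would be called higher without DMSO replicate 2 (0.19, edgeR adjusted p = 5.66e-03). Ugt2b36 stood at 131.7, 137.3 and 126.6 CPM against 132.4, 126.5 and 127.8 CPM (-0.03, SE 0.0435; edgeR adjusted p = 0.583). Ugt2b38 went from a mean of 3.43 to 4.12 CPM and Ugt2b37 from 1.27 to 1.06 CPM, both within the spread of their libraries. Some of these genes are hard to separate: 34.8% of the 50-base windows of Ugt2b5 transcripts occur in Ugt2b38, and 15.2% of those of Ugt2b37 occur in Ugt2b5. Windows of Ugt2b35 are shared with no other member of the 3 families.

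Sums over the locus do not depend on how reads were divided among neighbours, provided that each read was counted in 1 row. The Ugt1a rows do not meet this condition. The overlapping Ugt2a1 and Ugt2a2 rows, with 6 and 5 counts in all, are also near copies. For the other Ugt2 rows it is not known. The 10 Ugt2 rows summed to 2396, 2525 and 2429 CPM in DMSO and to 2954, 2831 and 2863 CPM with NIBR-LTSi, 1.18 times the DMSO mean. These genes lie at chr5:86889770-87490871, and Sult1b1, Sult1d1 and Sult1e1 lie next to them. Over the whole stretch, chr5:86889770-87591611, 6 of 10 tested genes were higher and none was lower. Over all tested genes, 22.8% were higher and 19.2% lower. Of the 6, Ugt2b1 and Sult1d1 lost their calls under some alternatives.

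Sult1c2 had the clearest change in the 3 families. This sulfotransferase gene, at chr17:53829637-53845958, stood at 31.7, 30.9 and 32.9 CPM in DMSO and at 96.8, 93.1 and 90.4 CPM with NIBR-LTSi. That is 2.93-fold higher (log2 fold change 1.55, SE 0.0497; edgeR adjusted p = 1.01e-09), with a gap between groups many times the spread within them. Per kb of gene width, the level went from 17.3 ± 0.554 to 50.6 ± 1.75 CPM (SD, n = 3), which put it below Ces1e (48.2 ± 0.921) in DMSO and above it (37.7 ± 0.117) with NIBR-LTSi. The neighbouring Sult1c1 had no count in any library. None of the 50-base windows of Sult1c2 occurs in another gene of the 3 families.

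The other sulfotransferases moved less. Sult1b1, which sulfates phenols and thyroid hormones, rose from 374.4, 401.6 and 375.2 CPM to 474.2, 453.9 and 445.9 CPM (log2 fold change 0.26, SE 0.0402; edgeR adjusted p = 3.19e-04). Sult1d1, which acts on catecholamines in mice, rose from 325.6, 335.5 and 325.0 CPM to 373.6, 348.5 and 371.6 CPM (0.15, SE 0.0383; edgeR adjusted p = 7.92e-03). Both sat entirely above their controls, although Sult1d1 did so by little and lost its call without NIBR-LTSi replicate 3 (0.13, edgeR adjusted p = 0.0572). Sult2b1, which sulfates cholesterol, fell from 55.7, 60.6 and 53.0 CPM to 40.2, 42.3 and 40.4 CPM (-0.46, SE 0.0581; edgeR adjusted p = 5.66e-05). Sult6b2 stood at 195.9, 200.4 and 192.2 CPM against 199.9, 192.8 and 178.1 CPM and was not called (-0.04, SE 0.0462; edgeR adjusted p = 0.472). In all, 3 of 5 tested Sult genes were higher and 1 was lower, against 22.8% higher and 19.2% lower of all tested genes. The sum over the family was 983.8, 1029 and 978.6 CPM in DMSO and 1185, 1131 and 1127 CPM with NIBR-LTSi, 1.15 times the DMSO mean.

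**Figure D3:**
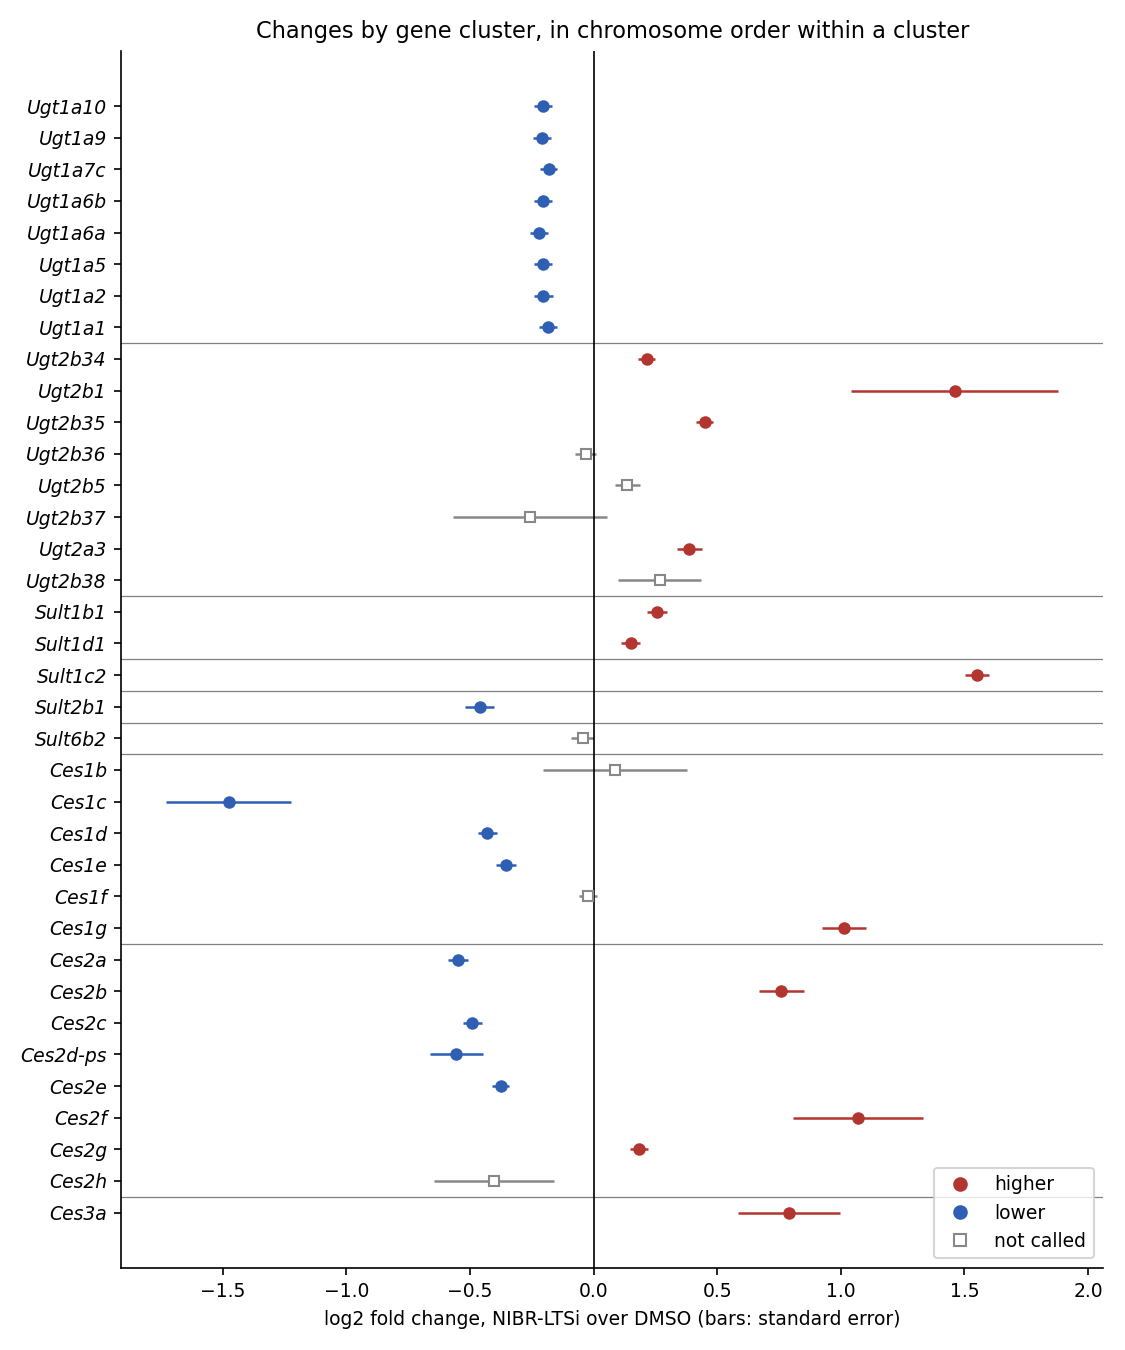
Log2 fold change (NIBR-LTSi over DMSO, bars: SE) of the 36 tested rows, in chromosome order within each gene cluster, with lines between clusters. Ugt1a rows all lie near -0.2 because they share reads, Ugt2 and Sult1 genes lie at or to the right of 0 except Ugt2b36 and Ugt2b37, and the Ces1 and Ces2 arrays hold genes on both sides.

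Carboxylesterases of the Ces2 array, the main drug-hydrolysing esterases of the gut wall, fell in the 3 genes that were highest per kb in DMSO. Ces2e, the highest per kb of all 62 rows in DMSO, went from 2244, 2310 and 2208 CPM to 1778, 1729 and 1702 CPM (log2 fold change -0.38, SE 0.0335; edgeR adjusted p = 3.48e-06). Ces2a went from 1246, 1338 and 1243 CPM to 884.0, 887.6 and 845.4 CPM (-0.55, SE 0.0388; edgeR adjusted p = 5.41e-07). Ces2c, which hydrolyses acylglycerols, went from 483.1, 506.1 and 463.3 CPM to 349.0, 345.2 and 339.1 CPM (-0.49, SE 0.0389; edgeR adjusted p = 1.35e-06). None of these 3 had a treated library within its control range. The pseudogene Ces2d-ps went from 21.8, 27.4 and 21.7 CPM to 18.07, 15.14 and 15.03 CPM (-0.56, SE 0.107; edgeR adjusted p = 1.92e-03). Its reads are uncertain, since 45.7% of its 50-base windows occur in Ces2c.

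In the same array of 8 tested genes 3 were higher and 4 lower, against 22.8% higher and 19.2% lower of all tested genes. Ces2g stood at 230.5, 245.8 and 241.6 CPM in DMSO and at 276.0, 270.2 and 269.0 CPM with NIBR-LTSi (log2 change 0.18, SE 0.0378; edgeR adjusted p = 2.07e-03). The rarer Ces2b rose from 9.09, 7.55 and 8.08 CPM to 13.3, 14.5 and 14.3 CPM (0.76, SE 0.0926; edgeR adjusted p = 4.44e-05), and Ces2f from 1.001, 2.389 and 1.606 CPM to 3.51, 3.35 and 3.44 CPM (1.07, SE 0.262; edgeR adjusted p = 6.24e-03). For each, all treated libraries lay above all controls. Ces2h was scattered, at 6.97, 9.11 and 8.12 CPM against 3.82, 6.26 and 7.86 CPM, and was not called (-0.40, SE 0.244; edgeR adjusted p = 0.234). It would be called lower with the replicate number as a block (-0.45, edgeR adjusted p = 0.0440) or without NIBR-LTSi replicate 3 (-0.66, edgeR adjusted p = 0.0320).

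The 8 genes lie together at chr8:104734003-105020410, and in chromosome order Ces2a, Ces2c, Ces2d-ps and Ces2e fell, Ces2b, between Ces2a and Ces2c, rose, and Ces2f and Ces2g beyond Ces2e rose. The sum of the array, 4242, 4446 and 4195 CPM in DMSO, was 3326, 3271 and 3196 CPM with NIBR-LTSi, 0.760 times the DMSO mean. Within that sum Ces2e kept 52.5% in DMSO and 53.2% with NIBR-LTSi, Ces2a went from 29.7% to 26.7%, and Ces2g went from 5.57% to 8.33%. A fall in a share follows from the other members as well as from the gene itself.

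Genes of the Ces1 array, which in rodents hydrolyse drugs and stored or circulating lipid, were also divided. Ces1d, a triacylglycerol hydrolase, went from 129.3, 132.0 and 128.8 CPM to 96.3, 96.1 and 97.1 CPM (log2 fold change -0.43, SE 0.0385; edgeR adjusted p = 3.67e-06). Ces1e went from 107.7, 103.8 and 104.8 CPM to 82.8, 82.7 and 82.3 CPM (-0.35, SE 0.0403; edgeR adjusted p = 2.61e-05). Ces1c, the secreted esterase of mouse plasma, went from 3.24, 4.44 and 2.74 CPM to 1.497, 1.350 and 0.914 CPM (-1.48, SE 0.253; edgeR adjusted p = 5.80e-04). Ces1g was the one that rose, from 8.61, 7.33 and 8.74 CPM to 16.7, 16 and 17.3 CPM (1.01, SE 0.0884; edgeR adjusted p = 3.01e-06). In each of these 4 the groups were fully apart, but how often called genes separate so over the whole table was not computed. Of 6 tested genes of the array, 1 was higher, 3 were lower and 2 were not called. Over all tested genes, 22.8% were higher and 19.2% lower. Ces1f, the most abundant of the array at 443.2, 454.2 and 442.5 CPM, was at 458.7, 433.6 and 427.7 CPM with NIBR-LTSi (-0.02, SE 0.0368; edgeR adjusted p = 0.671). Ces1b went from a mean of 1.07 to 1.12 CPM. The sum of the array, 693.0, 702.8 and 688.9 CPM in DMSO, was 656.9, 631.2 and 626.6 CPM with NIBR-LTSi, a ratio of 0.918.

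Ces3a, beside the Ces2 array, rose from 1.28, 1.55 and 1.61 CPM to 2.22, 2.82 and 2.60 CPM (log2 fold change 0.79, SE 0.207; edgeR adjusted p = 9.04e-03). This call was lost without NIBR-LTSi replicate 2 (0.70, edgeR adjusted p = 0.0541), and 25.6% of its 50-base windows occur in Ces3b. Summed over the family, carboxylesterase transcripts went from 4937, 5151 and 4886 CPM to 3985, 3905 and 3826 CPM, 0.782 times the DMSO mean. The Ugt family, with Ugt1a counted as its Ugt1a5 row, went from 3828, 4071 and 3855 CPM to 4246, 4097 and 4126 CPM, a ratio of 1.06. That sum leaves out the counts above the Ugt1a5 row, and those of Ugt1a7c, Ugt1a6a and Ugt1a9 fell. The ratio with them included was not computed, so a rise of the whole family is not shown. Enterocyte marker sums, given above, were also lower with NIBR-LTSi, and single markers went both ways: Fabp1 went from 7372 ± 346 to 5151 ± 176 CPM, whereas the means of Lct, Anpep, Apoa1 and Alpi were higher, from 54.1 to 200.2 CPM for Lct. Their part in these results was not tested.

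**Figure D4:**
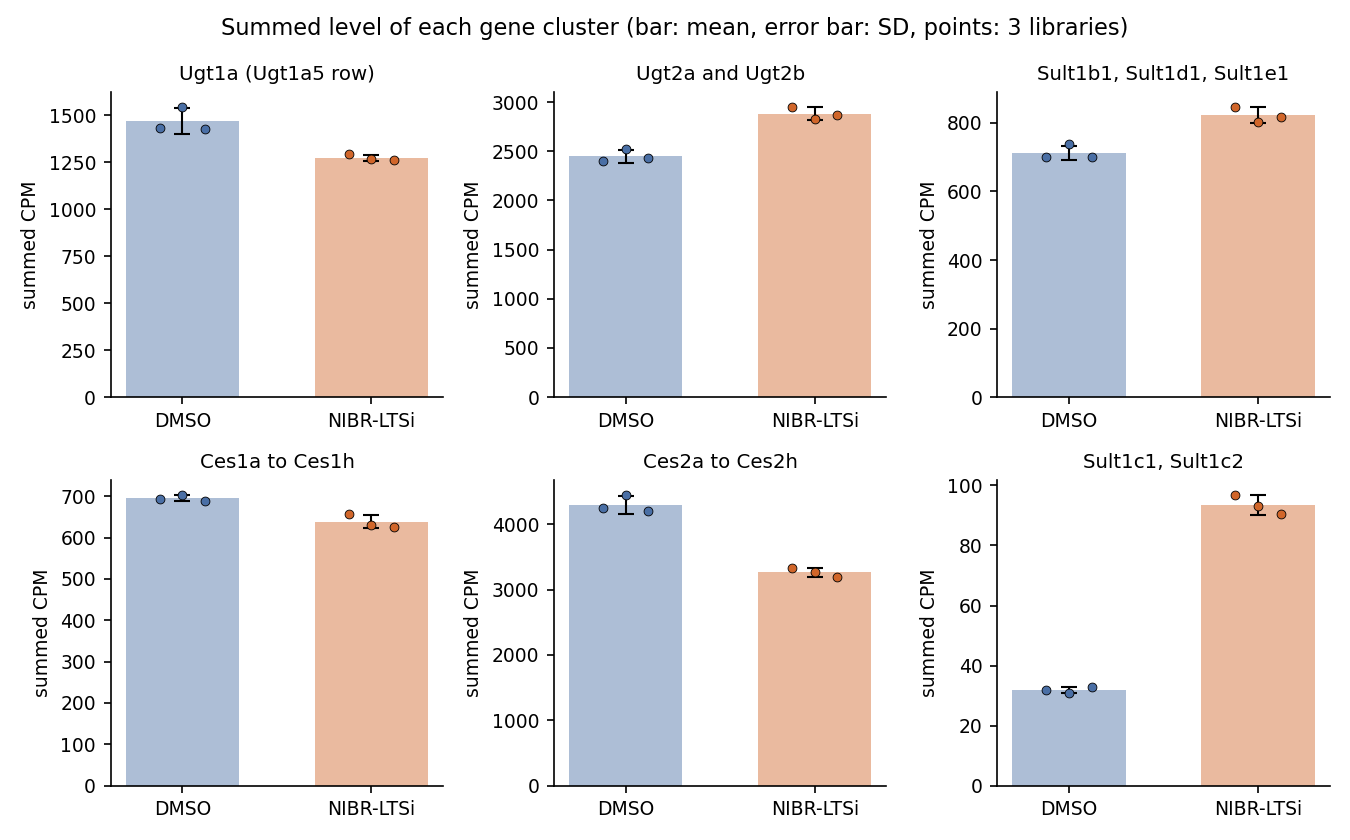
Summed CPM of each gene cluster (bar: mean, error bar: SD, points: 3 libraries per group; axes start at 0 and differ between panels). Sums of the Ugt1a5 row and of the Ces1 and Ces2 arrays are lower with NIBR-LTSi, those of Ugt2, Sult1b1 with Sult1d1 and Sult1e1, and Sult1c are higher, and the 2 groups overlap in none of the 6 panels.

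Per kb of gene width, Ces2e was the highest in DMSO at 835 ± 19.2 CPM (SD, n = 3). Ces2a followed at 541 ± 22.7, Ugt2b34 at 363 ± 8.08, Ces2c at 246 ± 10.9 and Ugt2b5 at 160 ± 10.9. The 8 Ugt1a rows fell between 286 and 733, but shared reads and unequal widths leave no order among them. Sult1b1 (138 ± 5.57), Ces1f (136 ± 2.01) and Sult1d1 (134 ± 2.39) did not differ beyond their spread. With NIBR-LTSi, Ces2a (370 ± 9.93) lay below Ugt2b34 (421 ± 7.67), the reverse of their order in DMSO. The lowest tested gene per kb was Ugt2b1, at 0.151 ± 0.0649.

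The other 26 rows were too low to test, and 16 of them had no count in any library. Among these were all 8 Sult2a genes but Sult2a7, which had 1 count; they are hydroxysteroid and bile acid sulfotransferases typical of liver. Sult1e1, the estrogen sulfotransferase, Sult1c1, Sult3a1, Sult3a2, Sult6b1, Ugt3a1, Ugt3a2, Ces4a and Ces5a were also at 0. Zero counts over all 6 libraries allow a level of up to 0.0222 CPM, from counting error alone. Sult1a1, the main phenol sulfotransferase of liver, had 29 counts in all. Sult4a1, known from brain, had 21 counts, Ces3b 11, Ugt8a (galactosylceramide synthesis in myelin) 7, Ces1h and Ugt2a1 6 each and Ugt2a2 5. Ces1a and Sult5a1 had 1 count each. Per kb in DMSO, Sult1b1 and Sult1d1 were the highest Sult genes, followed by Sult6b2, Sult2b1 and Sult1c2.

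Genes that supply the activated donors held calls in both directions, to be read against the 22.8% higher and 19.2% lower of all tested genes. Of 9 genes for making, carrying and recycling UDP-glucuronic acid, 1 was higher, 4 were lower and 4 were not called, with a median log2 fold change of -0.05 against 0.02 over all tested genes. Ugdh, which makes UDP-glucuronic acid, stood at 945.6, 971.5 and 932.2 CPM in DMSO and at 911.0, 909.9 and 936.7 CPM with NIBR-LTSi (edgeR adjusted p = 0.279). Entpd5, which clears the UDP left by transferases in the endoplasmic reticulum, fell from 266.7, 274.9 and 272.0 CPM to 221.4, 210.1 and 213.1 CPM (log2 fold change -0.34, SE 0.0369; edgeR adjusted p = 1.91e-05). The nucleotide sugar carriers Slc35d2 (-0.44) and Slc35a3 (-0.11) also fell, and Uxs1, which uses up UDP-glucuronic acid, rose by 0.29 on the same log2 scale.

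Sulfate supply held larger changes. Of 16 tested genes 4 were higher, 5 lower and 7 not called, against 42.0% called over all tested genes. The median log2 fold change was -0.03. Papss2, which makes PAPS, fell from 1805, 1870 and 1827 CPM to 1255, 1229 and 1227 CPM (-0.57, SE 0.0318; edgeR adjusted p = 7.60e-08). Slc13a1, the sodium-coupled sulfate carrier, fell from 188.0, 184.8 and 184.6 CPM to 120.4, 116.1 and 119.1 CPM (-0.65, SE 0.0377; edgeR adjusted p = 1.05e-07). Slc26a2, a sulfate exchanger, rose from 96.4, 95.6 and 111.7 CPM to 186.1, 164.9 and 170.5 CPM (0.78, SE 0.0677; edgeR adjusted p = 1.04e-05). The groups were fully apart in these 3 genes. The other PAPS synthase, Papss1, was at 125 CPM in both groups (edgeR adjusted p = 0.966). Bpnt2, a phosphatase that clears the spent donor in the Golgi, rose by 0.40 and the lysosomal sulfatase Arsa fell by 0.37, both on the log2 scale. So Sult1b1, Sult1d1, Sult1c2 and Slc26a2 rose, Sult2b1, Papss2 and Slc13a1 fell, and Sult6b2 and Papss1 were not called.

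Of 13 genes that export conjugates or bile acids or take up organic anions, 4 were higher, 4 lower and 5 not called. Their median log2 fold change was 0.06, and the shares over all tested genes were 22.8% higher and 19.2% lower. Abcc5, an organic anion exporter, rose from 12.2, 13 and 14.4 CPM to 38.0, 41.4 and 41.9 CPM (1.62, SE 0.0747; edgeR adjusted p = 1.57e-08). Abcc3, the basolateral exporter of glucuronides, rose from 287.9, 273.9 and 298.7 CPM to 390.9, 393.3 and 387.8 CPM (0.45, SE 0.0388; edgeR adjusted p = 2.95e-06), and Abcc1 by 0.88 on the log2 scale. The uptake carrier Slco2b1 (-0.40) and the bile acid exporter subunit Slc51b (-0.65) fell. Abcc2, the apical exporter, stood at a mean of 738 CPM in DMSO and 770 CPM with NIBR-LTSi and was not called (edgeR adjusted p = 0.410).

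**Figure D5:**
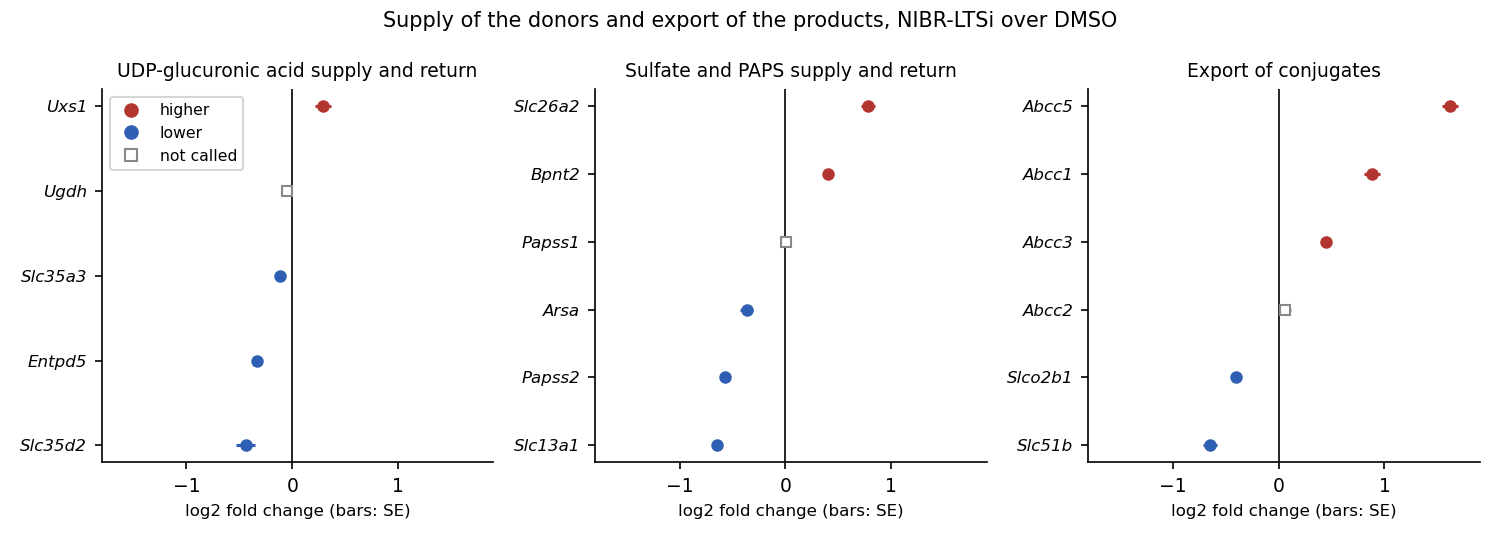
Log2 fold change (NIBR-LTSi over DMSO, bars: SE) of the genes named in the text that supply and return the 2 donors or export conjugates. Filled points passed the test, and each panel holds genes on both sides of 0: Papss2 and Slc13a1 lie near -0.6, Slc26a2 near 0.8 and Abcc5 near 1.6.

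Lists of other enzymes of ester hydrolysis and conjugation held calls in both directions, to be read against the 22.8% higher and 19.2% lower of all tested genes. Of 18 tested esterases, lipases and acylglycerol enzymes, 4 were higher, 6 lower and 8 not called (median log2 fold change -0.02), with Mogat2 (-0.72), Lipe (-0.42) and Dgat1 (-0.20) lower and Nceh1 (1.41) and Pon2 (0.26) higher. Of 12 other conjugating enzymes 3 were higher, 5 lower and 4 not called (median -0.15). Acsm3 rose by 1.81 and Gstm1 by 0.54, whereas Gstp1 fell by 0.41 and Gsta1 fell by 0.42, all on the log2 scale.

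Receptors that are known to control these enzymes are listed next. Of 21 nuclear receptors, xenobiotic sensors and intestinal factors, 5 were higher, 5 lower and 11 not called (median log2 fold change -0.04), against 42.0% called over all tested genes. Pparg (0.75), Ppard (0.43) and Nfe2l2 (0.19) rose, and Rxra (-0.28) and Vdr (-0.22) fell. The pregnane X receptor gene Nr1i2 (edgeR adjusted p = 0.107), Nr1i3 for the constitutive androstane receptor (edgeR adjusted p = 0.311) and Ahr (edgeR adjusted p = 0.817) were not called. Hnf4a rose by 0.13 on the log2 scale (edgeR adjusted p = 9.32e-03).

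Promoters were searched on both strands in the 250 bases before each RefSeq start (GRCm38.p6), which covered 55 promoters of 51 of these genes and 32851 promoters in all. GGAATG, the core letters bound by TEAD factors, the partners of YAP, occurred in 7 of the 55 promoters of the 3 families (12.7%) and in 12.6% of all promoters. TGANTCA, a loose form of the AP-1 motif in which N is any base, occurred in 8 of the 55 (14.5%) and in 6.70% of all. Promoters of neighbouring copies can be alike in sequence and are not independent, and the end of one motif can overlap the start of the other. The promoters of Ces2f and Ugt2b35 are shown because both genes rose, 2.10-fold and 1.36-fold, and each holds one of the motifs. Each run is 5′ to 3′ on the strand of the gene and ends just before the start, with TEAD letters (Ces2f) or AP-1 letters (Ugt2b35) in capitals:
Ces2f, chr8:104947106-104947355, plus strand: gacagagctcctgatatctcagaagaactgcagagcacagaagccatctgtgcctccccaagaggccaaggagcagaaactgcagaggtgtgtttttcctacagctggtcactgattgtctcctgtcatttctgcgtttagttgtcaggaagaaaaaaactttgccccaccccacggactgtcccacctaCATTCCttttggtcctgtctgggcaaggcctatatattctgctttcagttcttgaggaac
Ugt2b35, chr5:87000610-87000859, plus strand: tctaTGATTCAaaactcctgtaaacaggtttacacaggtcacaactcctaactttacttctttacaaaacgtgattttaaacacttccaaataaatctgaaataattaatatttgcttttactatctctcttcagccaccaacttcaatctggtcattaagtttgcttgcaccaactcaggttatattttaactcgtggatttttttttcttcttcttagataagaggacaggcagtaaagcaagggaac
The TEAD letters of Ces2f begin 60 bases before its start, and the AP-1 letters of Ugt2b35 begin 246 bases before its start. The TEAD letters also occur in the promoters of Sult2b1, which fell, and of Ugt1a10, whose row fell with the shared reads. They occur as well in those of Sult1e1, Sult1c1 and Ugt3a1, which had no counts, and of Sult5a1, which had 1 count. The AP-1 letters also occur in those of Ugt2b1, which rose, of Sult2b1 and Ugt1a6a, which fell, of Ugt2b37 and Ugt2b38, which were not called, and of Ugt2a2 and Sult1c1, below the filter. Neither motif occurs in the window of Sult1c2. A match is only a run of letters and is not shown to be a site.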

How the data were processed

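The organoids were digested to single cells before RNA was extracted for a stranded library, per the labels' protocols. The authors deposited raw read counts per gene with a gene width, used here to scale levels per kb. The submitters' processing notes name the build mm10 and edgeR. The aligner, the counter, its strand setting and its handling of shared reads: not given in the sources used here. Whether the reads of overlapping antisense genes were kept apart is therefore not known.

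The 62 rows were chosen by symbol, and they and the gene lists were chosen with earlier results of these data known. All rows were fitted together in edgeR 4.0.16 (R 4.3.3) with TMM factors, filterByExpr (12592 genes kept) and a robust quasi-likelihood F-test on group, two-sided, Benjamini-Hochberg threshold 0.05. The SE is back-calculated from the log2 fold change and F. Total counts of 18395427 to 26767043 set the precision, and the limit for zero counts uses 3 counts. All tested rows of the families are named, with library values where called or at a mean of at least 5 CPM, and up to 5 genes of each other list with the smallest p; Ugdh, Papss1, Abcc2, Nr1i2, Nr1i3, Ahr, Hnf4a, Fabp1, Lct, Anpep, Apoa1 and Alpi were named after their values were seen. Some genes of these lists and 1 motif searched are not reported here.

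The Ugt1a rows were also taken apart, a step chosen after seeing the data: the Ugt1a5 count was subtracted from each other row and the table refitted, so CPM of these differences uses slightly smaller totals. Exons and 50-base windows came from GENCODE M21, positions and promoters from RefSeq GRCm38.p6, in which all 62 were found. No libraries of a group agreed within sampling noise (chi-square per degree of freedom 4.46 to 11.3). The procedure was tested on simulated counts. Alternatives were DESeq2 1.42.0, limma-voom (limma 3.58.1), other scaling factors (DESeq2, upper quartile, library totals), no low-count filter, at least 1 CPM in 3 libraries, a replicate block and each library left out.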

Additional observations from a re-analysis of the deposited data

How the results depend on the processing

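Counts of called genes of the 3 families moved little. Over DESeq2, limma-voom, 3 other scalings, 2 other filters and the replicate block, 11 to 13 were higher and 16 or 17 lower (against 12 and 16); with each library left out, 10 to 13 were higher and 16 or 17 lower. With the Ugt1a reads taken apart, an alternative added after seeing the data, 12 were higher and 12 lower. Over all genes, calls ranged from 4212 (without DMSO replicate 1) to 5346 (library totals only), against 5287. Over the other 14 alternatives, 25 of 28 called rows kept their call wherever tested, and Ces3a, Sult1d1 and Ugt2b1 lost it under those named above; the last was not tested with the 1 CPM filter. Taken apart, Ugt1a1, Ugt1a10, Ugt1a2 and Ugt1a6b were not called, and Ugt1a10 and Ugt1a2 turned to log2 fold changes of 0.27 and 0.21, since only reads above the Ugt1a5 row were then left. Ugt2b5 gained a call with upper-quartile factors (adjusted p = 0.0401), library totals (8.68e-03), no filter (0.0281) and the 1 CPM filter, and without DMSO replicate 2.

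Apart from these, reversals were seen in genes that were not called: with library totals Ces1f was at a log2 fold change of 0.0226 and Ugt2b36 at 0.0120, and with each library left out Ces1b ranged from -0.0520 to 0.2709 and Ugt2b37 from -0.4334 to 0.0428. The cause was not tested. The median of all genes was 0.0632 on the log2 scale with library totals, against 0.0182.

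With the replicate block, 4945 genes were called in all, 12 of the 3 families higher and 17 lower. For replicates 1, 2 and 3, the deviations of same-numbered libraries from their group means correlated at 0.05, -0.30 and 0.56. DMSO replicate 2 correlated best with NIBR-LTSi replicate 1 (0.53). Deviations from a mean of 3 libraries constrain one another, so these values cannot decide whether same-numbered libraries are paired. Genes at about 1 CPM (Ugt2b1, Ces2f, Ces3a, Ces1b, Ugt2b37) had few counts (Ces1b 150 and Ugt2b37 153 in all), which limits what could be called for them.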
